A study of Arabidopsis thaliana with 4 samples.

Results

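A set of 182 nuclear genes of Arabidopsis thaliana had transcript signals at least 2-fold lower after strong light in both plant genotypes examined, and these genes are described here. The members were chosen by their measured signals: a probe set matched to a single nuclear gene, a ratio of high-light to untreated signal of 0.5 or less in erf6-1 and in wild type, and an untreated signal of 588 or more on both untreated arrays. Signals under 100 were raised to 100 before a ratio was taken. Of 13286 genes with a named probe set, 2086 were nuclear and bright enough, through 2088 probe sets, and 189 probe sets met both ratios. EXPB3, WES1, EXO, EXPA8, BCAT4, AT1G47400 and PSBW met the values too but were set aside by name, which left 182. Because the ratios chose the members, their direction and size are descriptions and carry no test.

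The arrays came from seedlings 3 weeks old, all in the Col-0 background. The 4 groups were erf6-1 after high light, untreated erf6-1, the wild type after high light and the untreated wild type, with 1 Affymetrix array each. High light meant 2000 µmol of photons per square metre and second for 2 h. ERF6 encodes a transcription factor of the ethylene response factor family, and erf6-1 is a mutant allele of it, whose lesion the labels do not describe. The probe set of ERF6 was not analysed here, so the genotype labels were not checked against it. The labels do not say how many plants made up a sample. The study asked which genes depend on ERF6 under oxidative stress and high light.

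Strong light brings more energy into the chloroplast than photosynthesis can use, and the excess gives rise to reactive oxygen species. Plants are known to answer with protective genes on the rise and with lower transcript levels of many genes for light harvesting, chlorophyll synthesis and growth. A transcript level reflects both synthesis and decay of the RNA, and an array of total RNA measures the level alone.

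The values are MAS5 signals, a summary of the brightness of the probes for 1 transcript, on a linear scale. The median signal over all 22746 probe sets was 207 in high-light erf6-1 and 321 in untreated erf6-1, against 208 and 279 in the wild type with and without high light. The high-light arrays therefore had lower medians in both genotypes, with log2 differences of -0.63 and -0.42 for erf6-1 and wild type, although the trimmed means were nearly equal. With the medians of the arrays set equal, 40 of the 182 members still met the rule. That scaling adds the same constant to the log2 ratios of a genotype, and less where the high-light signal was under the floor. With it, all 182 members kept log2 ratios below 0 in both genotypes. This had to be so, since the rule asks for at least 2-fold lower and the added constants were smaller than that. No group was repeated, so the spread between replicates is unknown and no difference below could be set against it. In whole seedlings, fewer cells of a type and less RNA per cell cannot be told apart.

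The labelled tissue was checked against marker genes of shoots and roots. Of 13 markers of green shoots, 1 had a named probe set, that of the RuBisCO activase RCA, with signals of 32887 after high light against 40655 untreated in erf6-1, and 37117 against 58919 in wild type. Of 10 root markers, 3 had one. Their summed signal was 18559 in high-light erf6-1 against 22632 in untreated erf6-1, and 16616 in the light-treated wild type against 29570 in the untreated one. Both shoot and root transcripts were therefore present, and the root sum, nearly all of it from the beta-glucosidase PYK10, was lower in the high-light array of each genotype. The root hair expansin EXPA18 went the other way in wild type, with 102 in erf6-1 after high light against 442 in untreated erf6-1, and 404 in the light-treated wild type against 266 in the untreated one. What the root share of the samples contributed to the members' ratios was not tested. None of the 7 listed flower and pollen markers or the 6 seed markers had a named probe set.

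Among the 2088 bright nuclear probe sets, 15.6% were at least 2-fold lower after high light in erf6-1 and 15.9% in wild type. In both genotypes at once it was 9.05%, which is the share that the rule selects and which includes the 7 genes set aside by name. A further 136 probe sets were 2-fold lower in erf6-1 but not in wild type, and 142 in wild type but not in erf6-1. Both comparisons have their own untreated array, so they share no sample. Signals at least 2-fold higher in both genotypes were seen for 101 of the 2088. The 2088 were chosen by untreated brightness; of 2058 probe sets chosen by the same limit on both high-light arrays, 247, or 12.0%, were at least 2-fold higher in both genotypes.

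The members' median signal was 321 in high-light erf6-1 against 968 in untreated erf6-1, and 315 in the light-treated wild type against 914 in the untreated one. The median member was 3.10-fold lower in erf6-1 and 3.10-fold lower in wild type. At least 4-fold lower were 48 members in erf6-1 and 61 in wild type, with 25 in both, and shares at 4-fold were not counted over the 2088. For 181 of the 182 members, both high-light signals lay below both untreated signals. The exception was AT5G20050, where high-light erf6-1 read 966 and the untreated wild type 892. The rule makes such a separation likely, and its share over the 2088 was not counted.

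The members together held 0.563% of the summed signal of the high-light erf6-1 array and 1.57% of the untreated one, and 0.586% and 1.64% in the same order in wild type. High-light signals under the floor of 100 were found for 14 members in erf6-1 and 16 in wild type, 28 members in all, with AT3G56590 and AT5G19810 under it in both. For these the fold is a lower bound, written as at least. Every rank below uses the values after raising to the floor, so a gene under it may lie further out than its rank. The plot of light responses sets the members against the other bright probe sets.

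**Figure D1:**
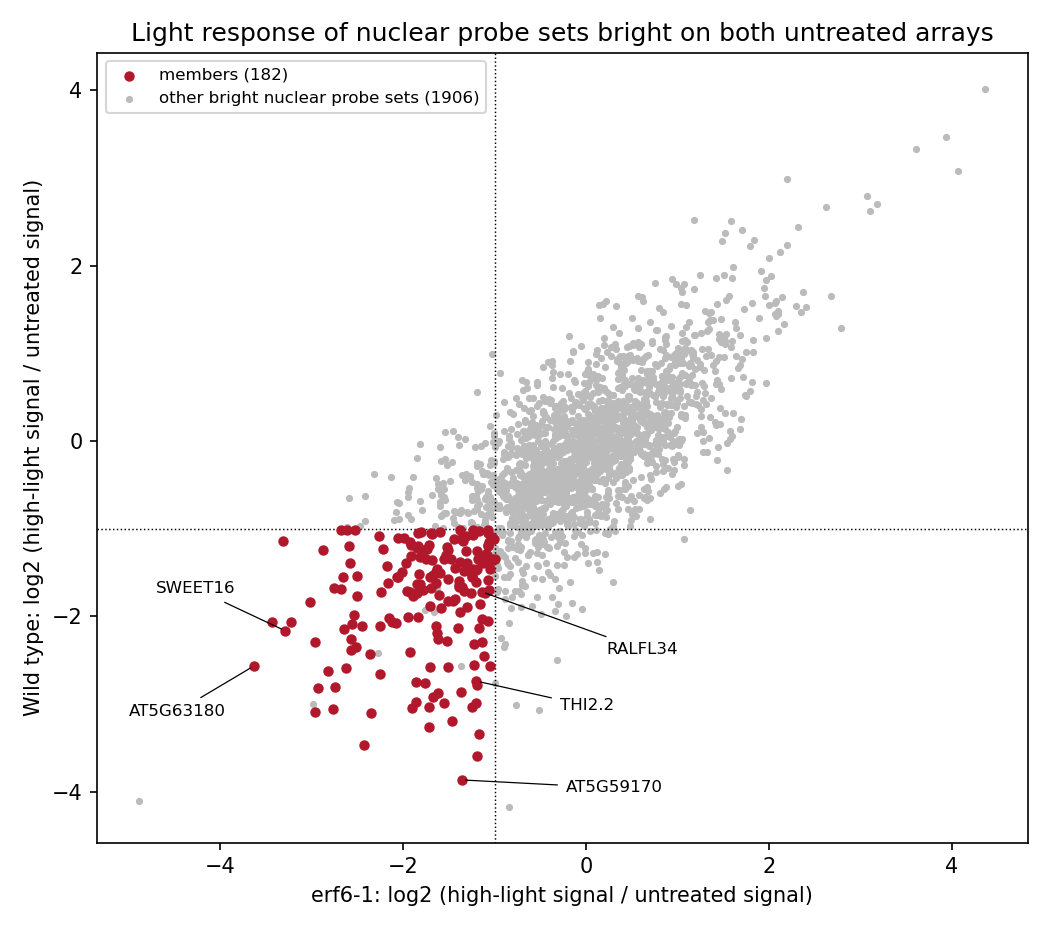
Log2 ratio of high-light to untreated signal in erf6-1 (horizontal axis) and in wild type (vertical axis) for 2088 probe sets, 1 point each; signals under 100 are set to 100, and dotted lines mark 2-fold lower. The 182 members fill the lower left corner by the way they were chosen, SWEET16 and AT5G63180 lie far to the left and AT5G59170 far down, and 1906 other probe sets surround them.

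Lower signals were more frequent among the dimmer genes. With the 2088 probe sets split into 4 classes of 522 by mean untreated signal, 13.6% of the dimmest class, with means of 594 to 865, were 2-fold lower in both genotypes. The share was 9.00% in the second class, 7.09% in the next and 6.51% in the brightest, with means from 1935 to 55256. In erf6-1 alone the shares were 22.8%, 17.4%, 12.8% and 9.20% from dim to bright, and in wild type 22.0%, 16.7%, 12.6% and 12.1%. The dimmest class thus held 70 of the 182 members and the brightest 31. What signal level itself contributed to these shares was not tested.

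**Figure D2:**
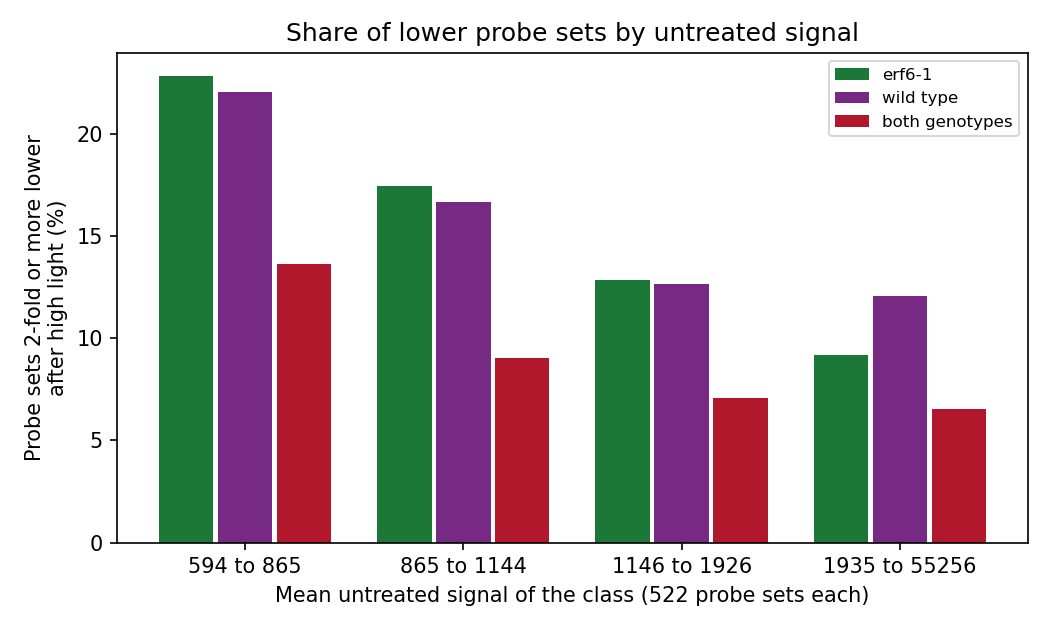
Share of probe sets (percent, vertical axis) at least 2-fold lower after high light in erf6-1, in wild type and in both, for 4 classes of mean untreated signal (horizontal axis, 522 probe sets each). From the dimmest to the brightest class the share lower in both was smaller in each step, 13.6%, 9.00%, 7.09% and 6.51%.

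Values close to the limits show how narrow the choice was. Just inside the ratio limit lay AT1G73600, with a ratio of 0.4999 in erf6-1 and 0.392 in wild type, and GH9C2, with 0.499 and 0.462. AT4G01280 had 0.386 in erf6-1 and 0.496 in wild type, and AT5G12980 had 0.174 and 0.496. Just outside it were AT1G17360 and AT1G76940, each at 0.5002 in erf6-1, AT4G26555 at 0.501 in wild type and AT2G16020 at 0.501 in erf6-1. On the side of brightness, AT4G38150 was the closest inside with 588.2 in the untreated wild type, and AT2G30760, at 586 there, was the closest outside, although its ratios met the rule.

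Of the 182 members, 164 carry only a locus tag in the annotation used, so no role is given for them, and 18 carry a gene symbol. The annotation also names AT5G15050 as GlcAT14B and AT3G52060 as GnTL. A symbol was held by 9.89% of the members and by 16.8% of the 2088 bright probe sets. EXPB3, WES1, EXO, EXPA8, BCAT4 and PSBW, which carry symbols and were set aside by name, count only in the second share. The 20 named members are taken first, by what their products do.

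Proteins of the chloroplast form the first group. CHLI2 (AT5G45930) encodes a form of the I subunit of magnesium chelatase, the enzyme that directs protoporphyrin IX towards chlorophyll. Its signal was 389 in erf6-1 after high light against 1168 in untreated erf6-1, and 327 in the light-treated wild type against 1222 in the untreated one. CHLI2 was 3.0-fold lower in erf6-1 and 3.74-fold lower in wild type, with similar levels in both genotypes under each condition.

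LIL3:1 (AT4G17600) is a light-harvesting-like protein of the thylakoid membrane needed for chlorophyll and tocopherol synthesis. It was the brightest named member, with 3066 after high light against 6413 untreated in erf6-1, and 2699 against 7133 in wild type. Its ratios lay near the limit, 2.09-fold lower in erf6-1 and 2.64-fold lower in wild type.

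LPA66 (AT5G48910), a pentatricopeptide repeat protein required for editing of a plastid transcript of photosystem II, read 272 after high light against 887 untreated in erf6-1, and 247 against 914 in wild type. CRR42 (AT5G20935), needed for the plastid NADH dehydrogenase-like complex, read 164 after high light against 593 untreated in erf6-1, and 333 against 1034 in wild type. Both were about as much lower in one genotype as in the other: LPA66 was 3.27-fold lower in erf6-1 and 3.70-fold lower in wild type, and CRR42 3.61-fold lower in erf6-1 and 3.11-fold lower in wild type. CRR42 also had the lower signal in erf6-1 on each pair of arrays, with log2 genotype differences of -1.02 after high light and -0.80 untreated.

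Other genes of chlorophyll metabolism were less uniform. A list of them, written with earlier results of these data known, had 6 genes bright enough untreated, of which 3 were 2-fold lower in erf6-1, 1 in wild type and 1, CHLI2, in both. The median log2 ratio of the 6 was -0.78 in erf6-1 and -0.34 in wild type, beside -0.08 and -0.18 over all 2088. CHLM, the magnesium protoporphyrin methyltransferase, had log2 ratios of -1.01 in erf6-1 and -0.39 in wild type. For HEME2, a uroporphyrinogen decarboxylase, they were -1.19 in erf6-1 and -0.28 in wild type, and for HEMB1, which makes porphobilinogen, 0.47 in erf6-1 and -0.33 in wild type. GSA1, which makes aminolevulinic acid, and HEME1 stayed within 2-fold in both genotypes. The list for photosystems, electron transport and carbon fixation had 14 such genes and no member. In it 1 gene was 2-fold lower in erf6-1 and 3 in wild type, and the one lower in both, PSBW, had been set aside by name. For comparison with either list, 15.6% of all 2088 were 2-fold lower in erf6-1, 15.9% in wild type and 9.05% in both.

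The second group acts at the cell wall and the cell surface. HRGP1 (AT3G54590) is a hydroxyproline-rich glycoprotein of the wall. Its signal was 631 after high light against 1655 untreated in erf6-1, and 601 against 1819.6 in wild type, which is 2.62-fold lower in erf6-1 and 3.03-fold lower in wild type. Its probe set is of a type that can also bind related sequences, as are those of 3 other members, AT2G12300, AT4G16240 and AT1G23720.

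GH9C2 (AT1G64390), a glycosyl hydrolase of the endoglucanase family, read 304 after high light against 608 untreated in erf6-1, and 434 against 939 in wild type, close to the limit of the rule in both genotypes. GlcAT14B (AT5G15050) adds glucuronic acid to arabinogalactan proteins. Its signal was 203 after high light against 1247 untreated in erf6-1, and 488 against 989.6 in wild type. Here the genotypes differed: GlcAT14B was 6.13-fold lower in erf6-1 and 2.03-fold lower in wild type, and the high-light level in erf6-1 lay far below that in wild type. GnTL (AT3G52060), annotated as an N-acetylglucosaminyl transferase-like protein, had 362 after high light against 1039.5 untreated in erf6-1, and 496 against 1149 in wild type.

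The list of wall enzymes and structural proteins had 8 genes bright enough, of which 2 were 2-fold lower in erf6-1, 3 in wild type and 1, HRGP1, in both. The list held neither GH9C2 nor the expansins EXPA8 and EXPB3, which met the rule's values and were set aside by name. Its median log2 ratios were -0.50 in erf6-1 and -0.47 in wild type, beside -0.08 and -0.18 over all 2088. Of the 2088, 15.6% were 2-fold lower in erf6-1, 15.9% in wild type and 9.05% in both. The cellulose synthase-like gene CSLD2 had log2 ratios of -1.19 in erf6-1 and -0.54 in wild type, and TBL25, of a family known for adding acetyl groups to wall polysaccharides, -0.63 in erf6-1 and -1.30 in wild type. Of the same family, TBL36 had -0.63 in erf6-1 and -1.04 in wild type, whereas TBL38 was higher, with 0.93 in erf6-1 and 0.40 in wild type. The xyloglucan endotransglucosylase genes XTH19, with 0.75 in erf6-1 and 0.51 in wild type, and XTH32, with -0.37 in erf6-1 and -0.41 in wild type, differed in sign from each other.

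RALFL34 (AT5G67070) belongs to the rapid alkalinization factors, secreted peptides that signal through receptor kinases of the cell surface and affect cell growth. It read 1229 after high light against 2713 untreated in erf6-1, and 1617 against 5328 in wild type. RALFL34 was 2.21-fold lower in erf6-1 and 3.30-fold lower in wild type, and its level in erf6-1 was lower under both conditions. The other members of the family with bright probe sets had positive log2 ratios. RALFL32 had log2 ratios of 0.87 in erf6-1 and 1.11 in wild type, and RALFL33 0.98 in erf6-1 and 0.90 in wild type. STOMAGEN, a peptide that promotes stomata, was within 2-fold, with -0.10 in erf6-1 and 0.16 in wild type.

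Small secreted defence proteins, and the repeat protein DRT100 after them, are next. THI2.2 (AT5G36910) is a thionin, one of the cysteine-rich antimicrobial peptides of plants. Its signal was 699 after high light against 1606 untreated in erf6-1, and 387 against 2586 in wild type. The ratio was more extreme in wild type, where THI2.2 was 6.68-fold lower, than in erf6-1, where it was 2.30-fold lower. ATLP-1 (AT1G18250), a thaumatin-like protein, showed the reverse order, being 4.67-fold lower in erf6-1 and 2.36-fold lower in wild type. Its 4 signals were 213 after high light against 993 untreated in erf6-1, and 313 against 737 in wild type. DRT100 (AT3G12610), a leucine-rich repeat protein named for DNA damage repair and toleration, read 548 after high light against 1954 untreated in erf6-1, and 705 against 2839.7 in wild type, and was 3.57-fold lower in erf6-1 and 4.03-fold lower in wild type.

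Regulators and signalling proteins follow. PUCHI (AT5G18560), a transcription factor of the AP2/ERF class to which ERF6 also belongs, is known from lateral root and floral development. It had the signals 100.3 after high light against 709.9 untreated in erf6-1, and 83.6 against 618 in wild type. With the wild-type value under the floor, PUCHI was 7.08-fold lower in erf6-1 and at least 6.18-fold lower in wild type. It was the dimmest of the 20 named members after high light on the wild-type array.

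BZIP17 (AT2G40950) is a membrane-anchored transcription factor that is released under salt stress and stress of the endoplasmic reticulum. It read 387 after high light against 955 untreated in erf6-1, and 322 against 845 in wild type, and was 2.47-fold lower in erf6-1 and 2.63-fold lower in wild type. BZIP60, another factor of endoplasmic reticulum stress, did not share this. Its log2 ratios were 0.89 in erf6-1 and 0.20 in wild type, and those of BZIP53, 0.84 in erf6-1 and 0.74 in wild type. In the list of transcription factors, BZIP17 was the 1 of 6 bright genes that was 2-fold lower in either genotype. PUCHI was not in that list.

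LCR (AT1G27340, LEAF CURLING RESPONSIVENESS) and SLOMO (AT4G33210, SLOW MOTION) are both F-box proteins, the part of a ubiquitin ligase that selects its target; LCR acts in leaf shape and SLOMO in the shoot meristem. LCR read 428 after high light against 979 untreated in erf6-1, and 258 against 711 in wild type. For SLOMO the signals were 305 after high light against 828 untreated in erf6-1, and 389.9 against 844 in wild type. The factor was larger in wild type for LCR, which was 2.29-fold lower in erf6-1 and 2.75-fold lower in wild type, and larger in erf6-1 for SLOMO, which was 2.71-fold lower in erf6-1 and 2.16-fold lower in wild type.

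SPK1 (AT4G16340, SPIKE1), needed for the shape of leaf epidermal cells and trichomes, had nearly the same values in both genotypes, 249 after high light against 806 untreated in erf6-1, and 255 against 815 in wild type. It was 3.24-fold lower in erf6-1 and 3.20-fold lower in wild type, and the 2 log2 ratios differed by -0.02, among the 8 smallest differences of all members. IQD28 (AT1G14380), of a family of calmodulin-binding proteins, read 172 after high light against 591 untreated in erf6-1, and 247 against 804 in wild type. P1R1 (AT5G57780) read 61.7 after high light against 933 untreated in erf6-1, and 161 against 669.7 in wild type, and was at least 9.33-fold lower in erf6-1 and 4.17-fold lower in wild type.

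SWEET16 (AT3G16690), a sugar transporter of the vacuolar membrane, was the named member with the lowest mean log2 ratio after raising to the floor. Its signal was 18 in erf6-1 after high light against 977 in untreated erf6-1, and 184 in the light-treated wild type against 825 in the untreated one. That made it at least 9.77-fold lower in erf6-1 and 4.49-fold lower in wild type. The other SWEET genes with bright probe sets did not follow. SWEET17, also of the vacuolar membrane, had log2 ratios of 0.22 in erf6-1 and -0.29 in wild type, SWEET1 of 0.26 in erf6-1 and 0.29 in wild type and SWEET11 of 0.76 in erf6-1 and 0.01 in wild type. SAG29, which the annotation lists in the same family, was higher after high light, with 2.06 in erf6-1 and 1.45 in wild type.

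**Figure D3:**
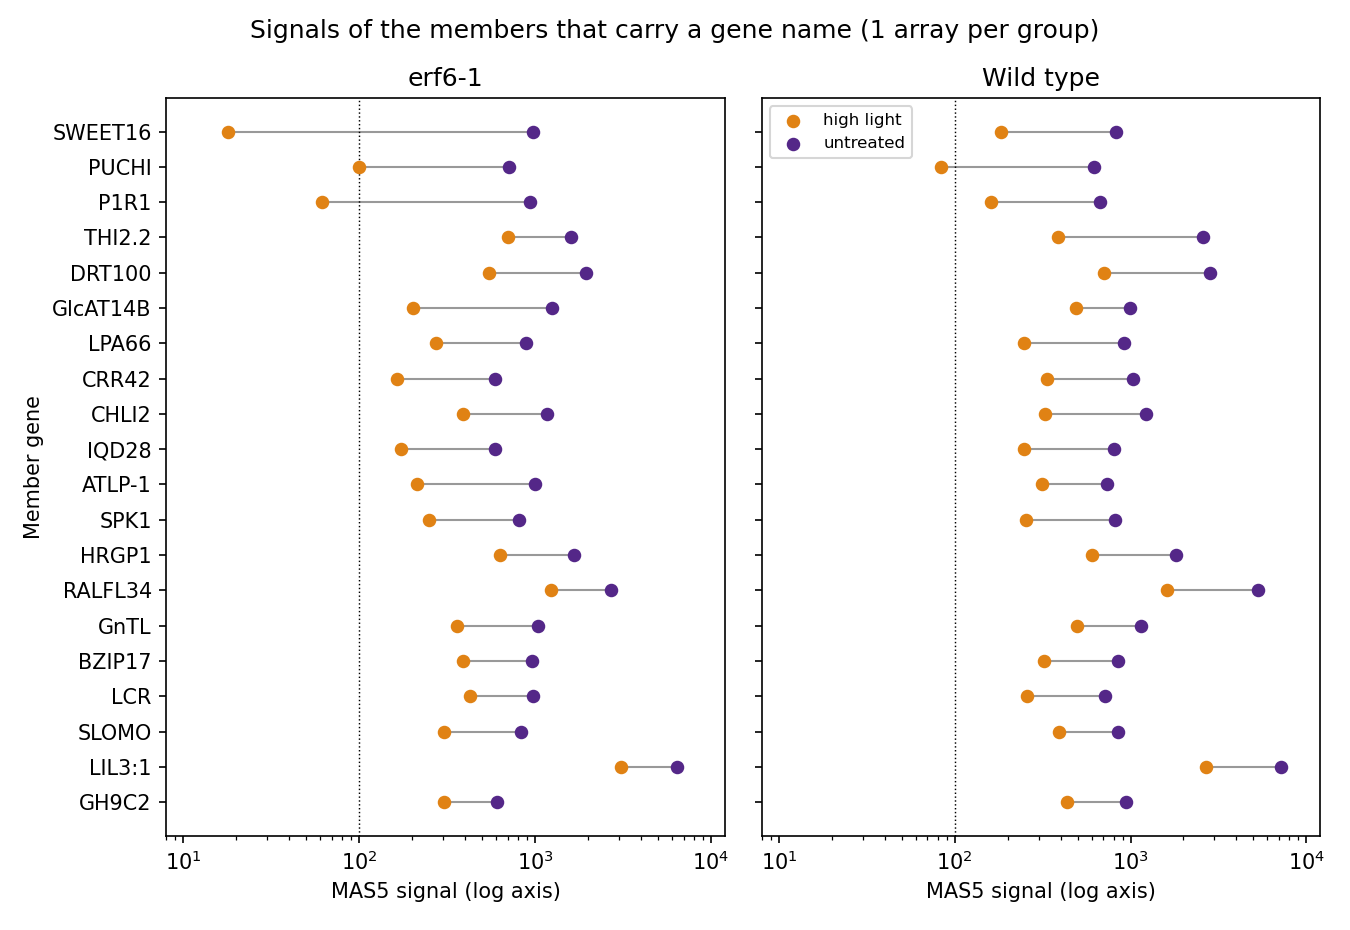
Signal of the 20 members with a gene name (rows) after high light and untreated, in erf6-1 (left) and wild type (right), on a log axis with the floor of 100 dotted; each point is 1 array. High-light points lie left of untreated points in every row, SWEET16 and P1R1 lie under the floor in erf6-1 and PUCHI in wild type, and LIL3:1 and RALFL34 are the brightest.

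Across all 19 gene lists, 69 places were filled by bright genes, and CHLI2, HRGP1, RALFL34, BZIP17 and SWEET16 were the members among them. Genes entered a list by their symbol or a synonym only. For 1738 of the 2088 bright probe sets the symbol is a locus tag, so a list can miss genes of its kind. Of the 2088 bright probe sets, 1621 were 2-fold lower in neither genotype, so a short list without such a gene says little about its kind. None of the 7 bright genes of nitrogen and sulfur transport and assimilation was 2-fold lower in either genotype. Nor was any of the 5 jasmonate and wound genes or the 3 glucosinolate genes. The same held for the 3 bright genes in the list of transporters other than aquaporins, VHA-A2, VHA-A3 and AT3G58730. That list did not hold the sugar transporter SWEET16, which was in the list of dark- and sugar-starvation genes. Of the 3 histone and cell division genes, HTB2, a histone H2B, was 2-fold lower in wild type, with log2 ratios of -0.16 in erf6-1 and -1.85 in wild type. The ribosomal protein list had 1 bright gene, AT1G77750, which was 2-fold lower in erf6-1 but not in wild type, with log2 ratios of -1.95 in erf6-1 and -0.58 in wild type. The auxin list had 2 bright genes and, with WES1 set aside, no member. No gene of the aquaporin, arabinogalactan protein, light signalling or growth hormone lists was both named and bright.

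The members with the lowest ratios carry locus tags only, apart from SWEET16, PUCHI and P1R1. AT5G63180 came first by the mean of both log2 ratios with a floor of 100, an order that a floor of 50 changes, since the mean was then lower for AT3G56590. Its signals were 76.6 after high light against 1239 untreated in erf6-1, and 212 against 1255 in wild type. It was at least 12.4-fold lower in erf6-1 and 5.92-fold lower in wild type. AT1G61920 read 129 after high light against 1002 untreated in erf6-1, and 36.4 against 854 in wild type, so that here the wild-type value was the one under the floor. AT3G53190, with 332 after high light against 1781 untreated in erf6-1, and 182 against 2012 in wild type, was the brightest of the first 3 when untreated, and stayed above the floor on every array.

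AT3G56590 and AT5G19810 were under the floor in both high-light arrays. The signals of AT3G56590 were 46.1 after high light against 679.5 untreated in erf6-1, and 45.6 against 830.4 in wild type, and those of AT5G19810 25.9 after high light against 668 untreated in erf6-1, and 41.5 against 698 in wild type. Neither has a measured fold for that reason, only a bound: AT3G56590 was at least 6.80-fold lower in erf6-1 and at least 8.30-fold lower in wild type, and AT5G19810 at least 6.68-fold lower in erf6-1 and at least 6.98-fold lower in wild type. AT3G50050, which stayed measurable, had 178 after high light against 1353 untreated in erf6-1, and 132 against 931 in wild type and was 7.60-fold lower in erf6-1 and 7.04-fold lower in wild type.

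Among the rest of the 20 lowest, the untreated signal was mostly moderate. AT1G22860 read 87.3 after high light against 1081 untreated in erf6-1, and 178 against 744 in wild type. For AT1G47655 the signals were 102 after high light against 797 untreated in erf6-1, and 129 against 632 in wild type, and for AT3G57720 177 after high light against 1056 untreated in erf6-1, and 185 against 968 in wild type. Of these 3, AT1G22860 differed most between the genotypes, being at least 10.8-fold lower in erf6-1 and 4.18-fold lower in wild type. AT3G07400 gave 156 after high light against 896 untreated in erf6-1, and 174 against 886 in wild type, nearly alike in both genotypes. AT3G50340 gave 24.3 after high light against 812 untreated in erf6-1, and 238 against 848 in wild type, with the low value in erf6-1. The opposite was seen for AT2G37780, with 183 after high light against 684 untreated in erf6-1, and 89.4 against 825 in wild type, and for AT5G38750, with 168 after high light against 803 untreated in erf6-1, and 24.7 against 629.9 in wild type.

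AT4G16980, AT5G59170 and AT5G62280 had ratios that were lower in wild type. AT4G16980 read 239 after high light against 1219 untreated in erf6-1, and 306 against 2625 in wild type. The signal of AT5G59170 was 561 after high light against 1439.9 untreated in erf6-1, and 385 against 5617 in wild type, so this gene was 14.6-fold lower in wild type, the largest factor there among members above the floor, and 2.57-fold lower in erf6-1. AT5G62280 read 233 after high light against 769 untreated in erf6-1, and 121 against 1169.6 in wild type. In all 3 the untreated level was higher in wild type than in erf6-1.

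Bright members give values furthest from the floor. An untreated mean of 2000 or more was found for 27 of the 182, and no high-light value of these was under 100. They were 2.09-fold to 5.69-fold lower in erf6-1, with a median of 2.57, and 2.08-fold to 14.6-fold lower in wild type, with a median of 3.27. AT5G12110 was the brightest member, with 5538 after high light against 19436 untreated in erf6-1, and 7208 against 22261 in wild type. It was 3.51-fold lower in erf6-1 and 3.09-fold lower in wild type.

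AT1G77940 followed by untreated level, with 6547 after high light against 13874 untreated in erf6-1, and 6679 against 17158 in wild type. AT4G29020 read 4907 after high light against 10318 untreated in erf6-1, and 4451 against 18533 in wild type. AT3G50685 had 5920.2 after high light against 12802 untreated in erf6-1, and 5642 against 13966 in wild type. These 3 were 2.12-fold, 2.1-fold and 2.16-fold lower in erf6-1, in the order named, and 2.57-fold, 4.16-fold and 2.48-fold lower in wild type, so that of the 3 AT4G29020 differed most between the genotypes.

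AT2G10940 and AT5G48490 combined brightness with low ratios in both genotypes. For AT2G10940 the signals were 1196 after high light against 5304 untreated in erf6-1, and 2091 against 8492 in wild type, and for AT5G48490 1300.4 after high light against 5486 untreated in erf6-1, and 1589.9 against 6709 in wild type. AT2G10940 was 4.44-fold lower in erf6-1 and 4.06-fold lower in wild type, and AT5G48490 4.22-fold lower in erf6-1 and 4.22-fold lower in wild type, the same factor to 2 decimals. AT5G52650 gave 2618 after high light against 6594 untreated in erf6-1, and 4022 against 13135 in wild type. Lower ratios in wild type than in erf6-1 were seen for it, at 3.27-fold and 2.52-fold. AT3G52960, with 1553 after high light against 4336 untreated in erf6-1, and 1895 against 4807 in wild type, and AT1G55960, with 3219 after high light against 7579 untreated in erf6-1, and 2682 against 5622 in wild type, complete the 10 brightest together with LIL3:1, and AT3G52960 was 2.79-fold lower in erf6-1 and 2.54-fold lower in wild type.

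The same 40 members met the rule when the arrays were set to equal medians, when they were quantile normalised, with floors of 50 or 200 and with a pseudocount of 50 in place of the floor. They include SWEET16, P1R1, DRT100, LPA66 and SPK1. With equal medians SWEET16 was lower by at least 7.73-fold in erf6-1 and 3.35-fold in wild type, the value in erf6-1 being the bound. DRT100 was lower by 2.30-fold in erf6-1 and 3.0-fold in wild type, LPA66 by 2.11-fold in erf6-1 and 2.76-fold in wild type and SPK1 by 2.09-fold in erf6-1 and 2.38-fold in wild type. Among the bright members, AT5G12110, AT2G10940, AT5G48490, AT1G22690 and AT1G78020 were in this set too. AT5G12110 was then lower by 2.26-fold in erf6-1 and 2.30-fold in wild type, AT2G10940 by 2.86-fold in erf6-1 and 3.03-fold in wild type and AT5G48490 by 2.72-fold in erf6-1 and 3.14-fold in wild type. AT1G22690, with deposited signals of 867 after high light against 3372 untreated in erf6-1, and 1202 against 3949 in wild type, was lower by 2.51-fold in erf6-1 and 2.45-fold in wild type, and AT1G78020, with 414 after high light against 2356 untreated in erf6-1, and 735 against 2513 in wild type, by 3.67-fold in erf6-1 and 2.55-fold in wild type. CHLI2, LIL3:1, RALFL34, THI2.2, BZIP17 and PUCHI were not among the 40.

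The next comparison asked whether the members differed between the genotypes. The untreated levels were close as a group. The median log2 difference of untreated erf6-1 to the untreated wild type was 0.00 over the members and -0.06 over all 2088. Of the members 5 were at least 2-fold lower in untreated erf6-1, or 2.75%, beside 2.83% of the 2088, and 2 were at least 2-fold higher, or 1.10%, beside 1.25%. Both shares were near those of all bright probe sets, and the rule asked for a bright signal in both genotypes.

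The 5 that were lower were AT5G59170, AT3G06750, AT4G16980, AT5G12470 and AT5G44020. AT5G59170 read 1439.9 in erf6-1 and 5617 in wild type on the untreated arrays, a log2 difference of -1.96. AT3G06750 read 1461 in erf6-1 and 3341 in wild type on the untreated arrays, and AT5G12470 2285 in erf6-1 and 4821 in wild type on the untreated arrays. For AT5G44020 the levels were 2001 in erf6-1 and 4016 in wild type on the untreated arrays, and this gene was also lower after high light, with 423 in erf6-1 and 1216 in wild type on the high-light arrays. AT5G52650, RALFL34 and AT3G07950 came next, at -0.99, -0.97 and -0.96, just short of 2-fold.

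The 2 that were higher untreated were AT5G20050, with 2181 in erf6-1 and 892 in wild type on the untreated arrays, and AT4G16240, with 1397 in erf6-1 and 606 in wild type on the untreated arrays. AT5G20050 was also higher after high light, with 966 in erf6-1 and 438 in wild type on the high-light arrays. AT4G16240 was not, with 207 in erf6-1 and 190.1 in wild type on the high-light arrays. Under 2-fold, the largest positive untreated differences were those of AT5G38020 at 0.98, AT2G42770 at 0.90 and AT5G12050 at 0.74, followed by AT3G62630, AT3G43240 and AT2G34510 at about 0.70.

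After high light the members differed more between the genotypes, in both directions. The median log2 difference of high-light erf6-1 to the high-light wild type was 0.00, beside 0.03 over all 2088. However, 14 members were at least 2-fold lower in erf6-1, or 7.69%, beside 2.25%, and 18 were at least 2-fold higher, or 9.89%, beside 2.78%. The members were dimmer after high light, with a median over both arrays of 311 against 1169 for the 2088. Among the 2424 nuclear probe sets with a mean high-light signal between 226 and 466, the lower and upper quartile of the members, 8.79% were 2-fold lower and 8.46% were 2-fold higher in erf6-1. The 90 members in that range had 7 of each, or 7.78%, near the share of all probe sets of that signal.

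**Figure D4:**
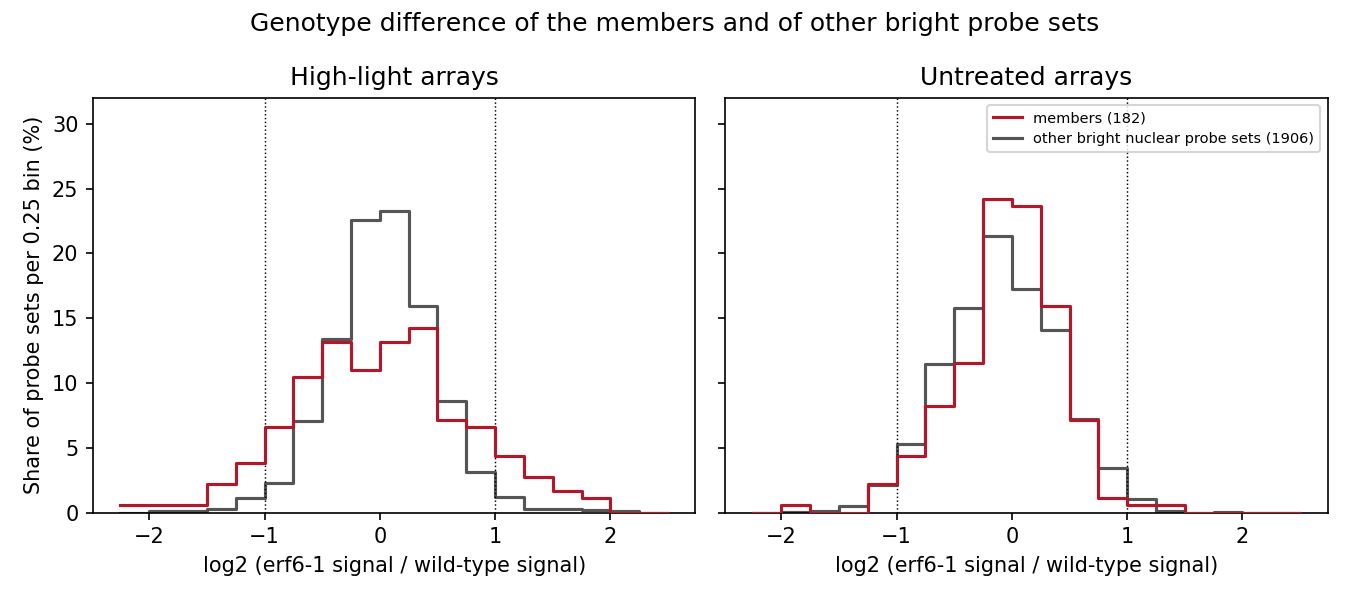
Distribution of the log2 genotype difference (erf6-1 over wild type, horizontal axis, bins of 0.25) on the high-light arrays (left) and the untreated arrays (right), as the share of probe sets in percent, for the 182 members and 1906 other bright probe sets; dotted lines mark 2-fold. The members' distribution is wide and centred near 0 after high light and narrow on the untreated arrays.

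Single genes mark the ends of that range. Among members above the floor on all arrays, AT1G21830 was lowest in erf6-1 relative to wild type after high light, with 128 in erf6-1 and 542 in wild type on the high-light arrays, at a log2 difference of -2.09. AT1G11850 read 58.1 in erf6-1 and 342 in wild type on the high-light arrays, and AT4G38660 46.1 in erf6-1 and 269 in wild type on the high-light arrays. In these and in AT3G25950, which read 245 in wild type, the erf6-1 value was under the floor. AT5G44020, GlcAT14B and AT3G07950 were measured above the floor on all arrays, at -1.52, -1.26 and -1.27.

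At the other end, AT2G35040 read 400.3 in erf6-1 and 101 in wild type on the high-light arrays, a log2 difference of 1.99. AT5G51560 read 382 in erf6-1 and 97.3 in wild type on the high-light arrays, with the wild-type value under the floor, and AT2G41090 769.5 in erf6-1 and 286 in wild type on the high-light arrays. For AT2G41090 the signals were above the floor throughout, and the untreated levels were 1799.9 in erf6-1 and 1678 in wild type on the untreated arrays, which are nearly equal. AT5G21020, with 338 in erf6-1 and 119.9 in wild type on the high-light arrays, and AT3G07030, with 439 in erf6-1 and 175 in wild type on the high-light arrays, had untreated levels that differed by under 0.01 on the log2 scale.

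The response in erf6-1 minus that in wild type had a median of 0.01 over the members and 0.11 over all 2088. It was negative in 89 members, which were lower by a larger factor in erf6-1, and positive in 93. By 2-fold or more the factor was larger in erf6-1 for 15 members, or 8.24%, beside 4.93% of the 2088, and larger in wild type for 24, or 13.2%, beside 7.85%. The 2088 were brighter after high light, with a median of 1169 against 311 for the members. Shares among probe sets of the members' high-light signal were not counted, so whether the larger shares are particular to the members is not known. Each response difference combines 4 single arrays, and the same 4 values chose the members.

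AT1G11850, with 58.1 after high light against 991 untreated in erf6-1, and 342 against 754 in wild type, had a difference of -2.17 or below, since its high-light signal in erf6-1 was under the floor. AT1G21830, with 128 after high light against 817 untreated in erf6-1, and 542 against 1094 in wild type, had -1.67 and was measured throughout. On the positive side were AT5G59170 at 2.51 and AT4G28990 at 2.40 or above, its high-light signal in wild type being under the floor, and the signals of AT4G28990 were 318 after high light against 726 untreated in erf6-1, and 39.7 against 1209.7 in wild type. AT2G35040 read 400.3 after high light against 901 untreated in erf6-1, and 101 against 1021 in wild type and had a difference of 2.17. AT2G35260, with 629 after high light against 1446 untreated in erf6-1, and 307 against 2428 in wild type, was at 1.79. In AT5G59170, AT4G28990 and AT2G35260 the untreated signal was higher in wild type, whereas in AT2G35040 it was nearly the same in both.

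Other members responded almost equally. In 51 of the 182, the 2 log2 ratios were within 0.2 of each other. The share over all 2088 was not counted, so whether this is particular to the members is not known. AT5G48490 had the smallest difference. AT1G76405 read 417 after high light against 1088 untreated in erf6-1, and 385 against 1007 in wild type, AT3G09320 271 after high light against 733 untreated in erf6-1, and 267 against 729 in wild type and AT2G34620 739.5 after high light against 2313 untreated in erf6-1, and 846 against 2595 in wild type, each with nearly the same ratio in erf6-1 and wild type. AT4G33670, with 1075 after high light against 2267 untreated in erf6-1, and 1722 against 3580.0 in wild type, kept the same ratio although both of its levels were lower in erf6-1.

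Features that the rule did not use were compared last. The members made up 8.18% of the bright probe sets on chromosome 1, 8.05% on chromosome 2, 9.95% on chromosome 3, 7.59% on chromosome 4 and 9.37% on chromosome 5. Of 196 pairs of bright genes that are direct neighbours in the annotation, 27 held a member and none held 2. The members were 8.72% of the 2088 bright probe sets, so pairs with 2 of them would be few whatever their position. The closest members were AT3G06750 and AT3G06770, with 1 gene between them, and AT4G28990 and AT4G29020, with 2. AT2G15510, AT2G12300 and AT5G20760 are annotated as pseudogenes, and these were the only 3 pseudogenes among the 2088 bright probe sets. AT2G15510 read 149 after high light against 922 untreated in erf6-1, and 38.9 against 603 in wild type, and AT2G12300, whose probe set can also bind related sequences, 225 after high light against 619 untreated in erf6-1, and 27 against 914 in wild type. For AT5G20760 the signals were 198 after high light against 632 untreated in erf6-1, and 18.9 against 755 in wild type. All 3 were under the floor in the high-light wild type and above it in high-light erf6-1.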

How the data were processed

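Total RNA of Arabidopsis seedlings was hybridised to Affymetrix arrays, 1 for each of 4 groups taken from the sample labels; a description of embryos in the labels was not used. The deposited values are linear signal intensities that the authors made with MAS5, per the submitters' processing notes; version and settings are not given in the sources used here.

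Of 22746 probe sets, 13513 were paired with 1 gene in the platform's gene table, and 13436 matched the RefSeq gene table (TAIR10.1), which gave names and gene order. The limit of 588 is the 75th percentile of all values pooled. Python 3.11.15 with numpy 2.4.6 and pandas 2.3.3 computed log2 ratios, and the selection was checked on simulated data. No test was made, since each group had 1 array and the same values chose the members, and 4 arrays limit the precision.

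The members and the gene lists were chosen with earlier results of these data known. Genes outside a list that merely shared a symbol with it were removed (LCR, FDH, PDF1A, TPP2). Genes are named by rank (the 20 lowest mean log2 ratios, the 10 highest untreated means, 8 at each end of the genotype and response differences, 8 most equal responses, those nearest the limits), by list or by having a name; others were chosen after their values were seen. The planned search of promoters and proteins was not made, as no sequences were used here.
Alternatives were other scalings, floors, a pseudocount and other limits.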

Additional observations from a re-analysis of the deposited data

How the results depend on the processing

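No paired analysis was possible because the labels give no replicate numbers and no result came from a test. Floors of 50 and 200 selected the same 182 genes. A pseudocount of 50 selected 159, with member medians of -1.50 in erf6-1 and -1.50 in wild type (log2). All 159 were members, which was fixed in advance, since a pseudocount only draws a ratio towards 1. Quantile normalisation selected 135, of which 115 were members, with medians of -1.48 and -1.49. Equal medians selected 40, all of them members; the member medians were then -1.0 in erf6-1 and -1.21 in wild type, the untreated genotype difference -0.20 and the difference between responses 0.27. That scaling moved the median of the 2088 bright probe sets to 0.55 in erf6-1 and 0.25 in wild type, against -0.08 and -0.18 as deposited. Relative to it the members lay at -1.55 and -1.45 under both scalings, as they must, since the scaling multiplies a whole array by a constant. Of the 142 members lost, 50 were under the brightness limit after scaling, 91 over the ratio limit in erf6-1 and 63 in wild type. A ratio limit of 0.4 selected 98 genes and one of 0.6 selected 294; a brightness limit at the pooled median selected 799, and one at the pooled 90th percentile 39. Of 144 log2 ratios of members given by rank, 86 were still 2-fold lower with equal medians, 125 after quantile normalisation and 135 with the pseudocount. With no replicates, neither noise between arrays nor noise between plants could be measured.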
